A study of Gallus gallus with 32 samples.

Results

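In female blood, 5 genes of the W chromosome, the sex chromosome that only hens have, gave a signal above that of every male. The genes described are HINTW, LOC430766, LOC427025, UBAP2L2 and ATP5F1AW, which lie on chromosome W and have probe sets that carry a single gene symbol. They are 5 of 9680 genes with a probe set of their own, and are measured by 8 of the 17894 probe sets with values, 4 of them for LOC427025 and 1 for each other gene. Of 13 genes on W with such probe sets, these 5 had been picked because earlier results of these data showed them lower in males. Their difference between the sexes is therefore given as a description, without a test.

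RNA came from the blood of 32 broiler chickens, 1 array per bird, with 8 birds in each of 4 groups: females and males on a standard control diet, and females and males on that diet with a comfrey supplement. Comfrey is a medicinal plant. The breed is given as broiler chicken and the tissue as whole blood cells for every bird, and the RNA was taken from blood clots. The labels give an age of 32 in a field for months. Values are log2 probe set signals, on which a difference of 1 is a doubling.

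In birds the male is ZZ and the female ZW. The W is small and poor in genes, and most of its remaining genes are widely expressed and have a related gene on Z. Bird red cells keep a nucleus and some RNA, so blood RNA is dominated by red cells. HINTW is a W-linked relative of HINT1, a nucleotide-binding protein of the histidine triad family, and exists in many near-identical copies on the chicken W. ATP5F1AW belongs with the alpha subunit of mitochondrial ATP synthase, and UBAP2L2, also known as UBAP2W, with UBAP2, a protein with a ubiquitin-associated domain. LOC427025 is listed under the older names NIPBL and SCC2W. NIPBL is the factor that loads cohesin, the ring that holds DNA strands together, onto chromosomes. LOC430766 is a protein-coding gene for which the gene table gives no other name.

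The labelled tissue showed red cell transcripts at the top of the signal range. The alpha globin genes HBAD and HBA1 averaged 13.87 ± 0.08 and 13.67 ± 0.07 (SD, n = 32), and the highest single value on any array was 13.97. Array medians lay between 6.51 and 6.60, and the correlation of any pair of arrays between 0.945 and 0.984. Precision here is set by how many birds were arrayed.

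HINTW had a signal of 11.65 in the lowest control female, 12.28 in the median bird and 12.53 in the highest. In comfrey-fed females it ran from 12.05 through 12.37 to 12.56. Control males ran from 4.87 through 5.14 to 5.54, and comfrey-fed males from 5.07 through 5.23 to 5.49. Every female thus lay above every male, with a gap of 6.10 between the lowest female and the highest male. Over both diets, the female mean of HINTW was 12.28 ± 0.23 and the male mean 5.21 ± 0.20 (SD, n = 16), a female excess of 7.07, or 134-fold on the linear scale of the array signal. Males carry no W, and what their signal on these probe sets reads was not tested, so the fold is not a ratio of transcript numbers.

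**Figure D1:**
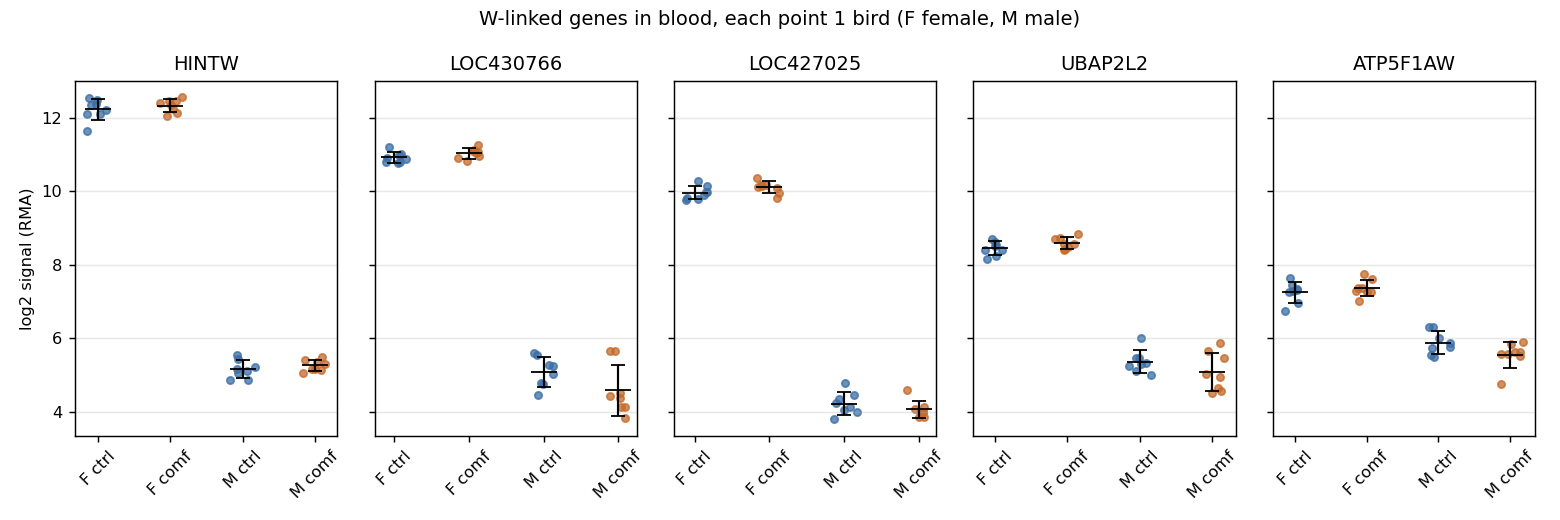
Log2 signal (vertical axis) of 5 W-linked genes in 4 groups of 8 birds. Each point is 1 bird, and black marks show the mean and SD of a group. Females (F) lie above males (M) in every panel, most for HINTW and least for ATP5F1AW, and the diets (ctrl, control; comf, comfrey) overlap within each sex.

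LOC430766 ran from 10.78 through 10.88 to 11.21 in control females and from 10.81 through 11.06 to 11.27 in comfrey-fed females, each given as lowest, median and highest of 8 birds. It ran from 4.46 through 5.13 to 5.59 in control males and from 3.83 through 4.41 to 5.66 in comfrey-fed males. The females were close together and the males spread widely: the SD was 0.15 in females and 0.60 in males (n = 16). The female excess was 6.14, and 5.12 separated the lowest female from the highest male.

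UBAP2L2 lay between 8.17 and 8.71 in control females (median 8.45) and between 8.39 and 8.85 in comfrey-fed females (median 8.57). In males it lay between 4.99 and 6.01 on control (median 5.31) and between 4.52 and 5.88 on comfrey (median 4.99). The female excess was 3.30 and the gap between the sexes 2.16.

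ATP5F1AW had the smallest separation of the 5 genes. It lay between 6.74 and 7.63 in control females (median 7.29) and between 7.03 and 7.75 in comfrey-fed females (median 7.32). Its signal in males was between 5.49 and 6.30 on control (median 5.82) and between 4.75 and 5.90 on comfrey (median 5.60). Its female mean was 7.31 ± 0.25 and its male mean 5.72 ± 0.36 (SD, n = 16), a female excess of 1.59, and the closest female and male were 0.44 apart.

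LOC427025 was read by 4 probe sets, called the first to the fourth in the order of their female means, and the first stands for the gene where 1 value per gene is given. The first averaged 10.04 ± 0.18 in the 16 females and 4.15 ± 0.28 in the 16 males (SD), an excess of 5.89. It ran from 9.77 through 9.95 to 10.29 in control females and from 9.82 through 10.14 to 10.37 in comfrey-fed females, and from 3.79 to 4.78 in control and 3.86 to 4.60 in comfrey-fed males. The second averaged 8.19 ± 0.22 and 2.99 ± 0.37, an excess of 5.20. The third averaged 6.44 ± 0.27 and 2.12 ± 0.50, an excess of 4.31, and the fourth 5.61 ± 0.29 and 2.99 ± 0.35, an excess of 2.62. Probe sets of this gene therefore differed in female excess from 6.14-fold to 59.2-fold on the linear scale, while all 4 separated the sexes without overlap, with gaps between 1.53 and 4.99.

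Over the 16 females, the first and second LOC427025 probe sets followed each other from bird to bird (Pearson r = 0.79, permutation p 0.0004; Spearman rho 0.78, permutation p 0.00075; adjusted over 6 pairs 0.0024 for r and 0.0045 for rho). Without the 2 birds farthest from the median, r was 0.72, and it was 0.62 in control and 0.85 in comfrey-fed females (n = 8). In birds 1 to 16 it was 0.83 (n = 10) and in birds 17 to 32 it was 0.77 (n = 6). The first and the third had r = 0.59 (permutation p 0.018, adjusted 0.0541; rho 0.57, permutation p 0.0234, adjusted 0.0703). No pair with the fourth passed: its r with the other probe sets lay between -0.30 and 0.20, with adjusted permutation p of 0.383 or more. With the first, r was 0.45 without the 2 birds farthest from the median of the fourth. It was 0.42 in control and -0.35 in comfrey-fed females, and 0.01 in birds 1 to 16 and 0.84 in birds 17 to 32.

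HINTW is also listed, together with LOC100857579, by another 14 probe sets. That gene has the older name HINTWL2, lies on W and overlaps HINTW in the gene table. These 14 hold 3 different sets of values, of which 1 is repeated in 12 of them. Because they list a pair of genes, they are not counted among the 8, and the signals of HINTW and its near-identical copies cannot be told apart in either kind of probe set. In the 3 different rows females averaged 12.78 ± 0.13, 12.46 ± 0.16 and 12.30 ± 0.24, and males 5.18 ± 0.37, 5.41 ± 0.28 and 5.30 ± 0.13 (SD, n = 16). Over the 16 females, the HINTW probe set correlated with them at r = 0.77, 0.94 and 0.98 (permutation p 0.0003, 1e-05 and 1e-05, the last being the smallest that the permutations can give; Spearman rho 0.78, 0.94 and 0.96, permutation p 0.00065, 1e-05 and 1e-05). After adjustment over the 3 pairs, the p-values of r were 0.0003, 1.5e-05 and 1.5e-05. Without the 2 birds farthest from the HINTW median, r was 0.80, 0.91 and 0.96. Within each diet and each range of bird numbers r lay between 0.68 and 0.99.

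**Figure D2:**
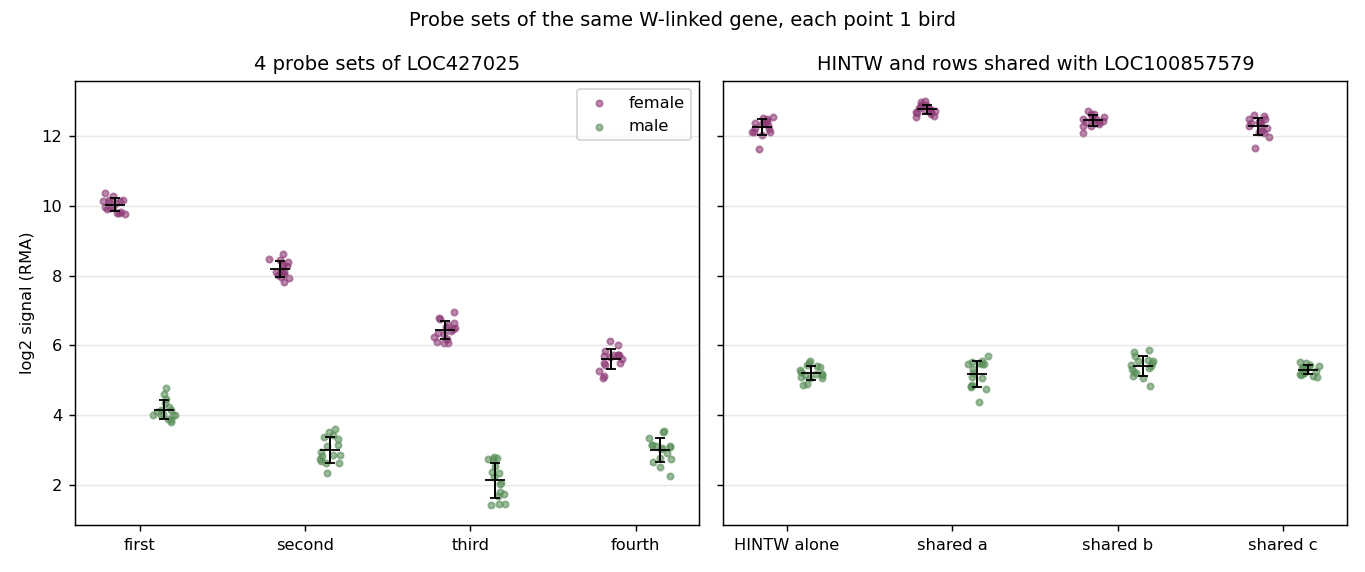
Log2 signal (vertical axis) of 16 females and 16 males in the 4 probe sets of LOC427025 (left) and in the HINTW probe set and 3 rows listed with LOC100857579 (right; shared a, b and c in the order of their female excess). Each point is 1 bird, with the mean and SD in black. The LOC427025 probe sets differ in their female excess, from 2.62 to 5.89, and the HINTW rows have an excess between 7.00 and 7.59.

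Read against all probe sets, complete separation with every female above every male occurred in 38 of 17894, or 0.212%. It held for 8 of the 8 probe sets of the chosen genes, which were picked on this contrast, so nothing is read from that count. The other 30 were the 14 listed with LOC100857579, 15 that carry no gene symbol, and LOC427353, a gene of non-coding RNA placed on Z. Females had a mean LOC427353 signal of 6.43 ± 0.36, and males 3.86 ± 0.34 (SD, n = 16). A female mean more than 1 above the male mean was found in 46 probe sets, or 0.257%. Of these, 22 carried no symbol, in 19 different rows, with an excess between 1.00 and 7.85, and 11 of the 22 had an excess above 5. The only autosomal gene named by a single-symbol probe set among the 46 was SLC20A1, a phosphate transporter, with a female mean of 7.34 ± 0.98 and a male mean of 6.27 ± 0.66 (SD, n = 16), where the sexes overlapped.

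The SD over 16 females lay between 0.15 and 0.25 for the probe sets of the 5 genes (the first for LOC427025), where the median SD of all probe sets in females was 0.22. LOC430766, LOC427025 and UBAP2L2 lay below that median, and HINTW and ATP5F1AW above it. In 4 of these 5 genes the SD was lower in females than in males, and HINTW was the exception. Over all probe sets, 58.4% had the lower SD in females. Males carry no W, so their SD on these probe sets is not the spread of a W transcript. Nothing is read about the genes from this count.

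The comparison of diets asked whether comfrey moved the level of W-linked transcripts in the birds that carry the chromosome. None of the 8 probe sets passed the threshold in females (limma, a linear model over all 32 arrays with a mean per diet and sex, adjusted p under 0.05), and 0 had an unadjusted p under 0.05. Among all 17894 probe sets 1 passed, or 0.00559%, and 704 had an unadjusted p under 0.05. Each of the 5 genes had a slightly higher mean on comfrey, by 0.10 for HINTW, 0.11 for LOC430766, 0.12 for ATP5F1AW, 0.14 for UBAP2L2 and 0.15 for the first LOC427025 probe set. Of the other LOC427025 probe sets, the second was at 0.23, the third at -0.09 and the fourth at 0.27. The median of the 8 was 0.13, beside -0.01 over all probe sets, of which 46.8% were positive.

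HINTW averaged 12.33 ± 0.18 in comfrey-fed and 12.23 ± 0.28 in control females (SD, n = 8), and its difference of 0.10 ± 0.11 (SE) had a 95% interval from -0.12 to 0.32 (limma, adjusted p 0.998). Control bird 1, at 11.65, was the lowest female, and without it the HINTW difference was 0.014. Without comfrey-fed bird 30 it was 0.064, and with bird number as a covariate 0.055. The ATP5F1AW difference of 0.12 was 0.042 without control bird 15, 0.060 without comfrey-fed bird 18 and 0.075 without control bird 9. For LOC430766 it was 0.17 with bird number as a covariate, and for the third LOC427025 probe set it lay between -0.17 and -0.04 with each female left out in turn and was -0.03 with that covariate. The interval was -0.29 to 0.52 for LOC430766, -0.18 to 0.46 for UBAP2L2, -0.18 to 0.41 for ATP5F1AW and -0.08 to 0.38 for the first LOC427025 probe set. With the 16 females fitted alone, where the wider spread of males does not enter, the interval for LOC430766 narrowed to -0.05 to 0.27, and 2 LOC427025 probe sets had an unadjusted p under 0.05: the second (0.0344) and the fourth (0.0486), both with an adjusted p of 0.991 in limma. In an exact permutation test over all 12870 splits, the second had p 0.0373 and the other 7 between 0.0595 and 0.53, unadjusted (n = 8).

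In males, which have no W, most of the differences between the diets were negative. None of 8 passed in limma (adjusted p 0.424 to 0.913, background 0.0% of 17894 probe sets, of which 1850 had an unadjusted p under 0.05), and 2 had an unadjusted p under 0.05. LOC430766 was at -0.49 ± 0.20 (SE; unadjusted p 0.0185) and ATP5F1AW at -0.33 ± 0.14 (unadjusted p 0.0285). In exact permutation tests these had p 0.106 and 0.0583 (n = 8), and with the 16 males fitted alone their unadjusted p was 0.0747 and 0.0499. Differences were negative in 6 of 8 probe sets, 4 of the 8 being of LOC427025. Their median was -0.24, beside -0.01 over all probe sets, of which 47.9% were positive.

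The interaction of diet and sex, male response less female response, was negative in 7 of 8 probe sets, with a median of -0.36, beside -0.0026 over all probe sets, of which 49.3% were positive. Of the 8, 4 belong to LOC427025, and in males the same probe sets have no W transcript to read. None of 8 passed in limma (adjusted p 0.861 to 0.999, background 0.0%), and 3 had an unadjusted p under 0.05, against 1020 of 17894. These were LOC430766 at -0.61 ± 0.28, ATP5F1AW at -0.45 ± 0.20 and the second LOC427025 probe set at -0.44 ± 0.20 (SE). The female excess of LOC430766 was 5.84 on control and 6.44 on comfrey, that of UBAP2L2 3.09 and 3.51, and that of ATP5F1AW 1.37 and 1.81. For HINTW it was 7.07 on either diet. The order of the 4 groups was comfrey-fed females, control females, control males, comfrey-fed males for 4 of the 5 genes, and for HINTW the males stood in the opposite order. In all 5, the neighbours in that order within a sex lay closer than the larger of their SDs.

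**Figure D3:**
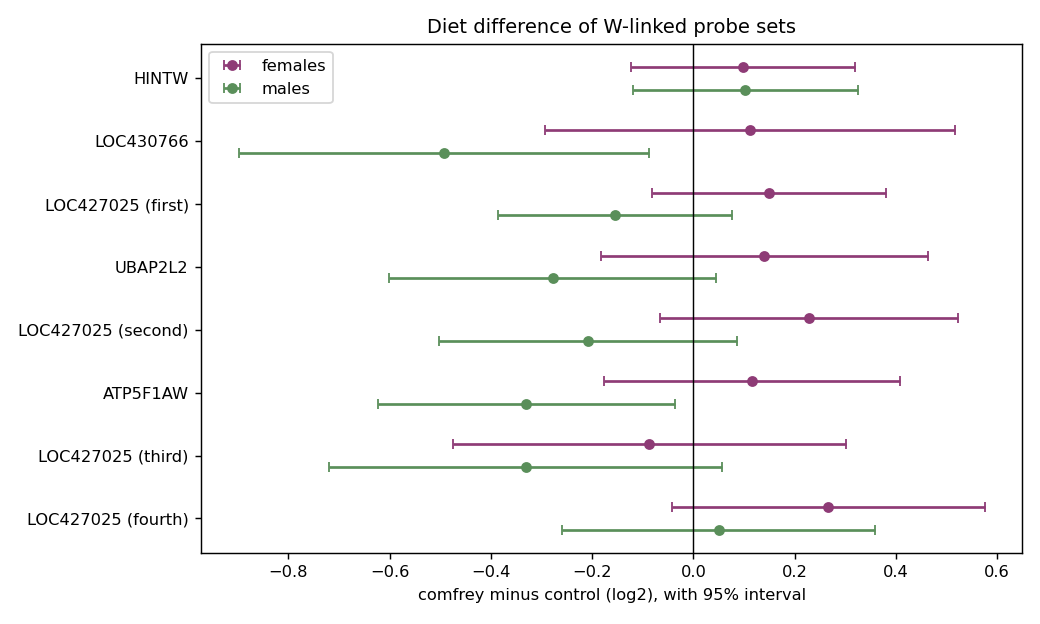
Comfrey minus control difference (log2, horizontal axis) of 8 W-linked probe sets in females and in males, ordered by female mean. Points are fitted differences and bars 95% intervals from limma with 8 birds a group. All intervals of females include 0, and those of males exclude it for LOC430766 and ATP5F1AW, whose adjusted p did not pass.

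In bulk blood, fewer cells of a type and less RNA per cell cannot be told apart. In females the marker lists of blood cells had similar means on the diets: 12.98 ± 0.07 on comfrey and 12.93 ± 0.09 on control for 3 measured red cell genes, 7.45 ± 0.45 and 7.34 ± 0.53 for 3 thrombocyte genes, and 8.29 ± 0.17 and 8.21 ± 0.13 for 4 T cell genes (SD, n = 8). For 3 B cell genes they were 7.45 ± 0.28 and 7.37 ± 0.15, for 3 heterophil genes 7.16 ± 0.25 and 7.21 ± 0.12, and for 2 monocyte genes 7.11 ± 0.36 and 7.09 ± 0.10. None of the 18 marker genes passed between the diets in females (limma). Of 8 red cell genes listed, only 3 were measured. HBAD and HBA1, among these 3, averaged 13.87 and 13.67 over all birds, near the highest value on any array (13.97). Whether so high a signal still follows the amount of RNA was not tested. In males the thrombocyte mean was 7.89 ± 0.81 on comfrey and 8.31 ± 0.87 on control (SD, n = 8), the widest gap between the diets among the 6 lists. Thrombocyte means were thus higher in males than in females on either diet. Heterophil means were also higher, at 7.38 ± 0.21 on comfrey and 7.53 ± 0.25 on control in males. On comfrey and control, males had B cell means of 7.39 ± 0.18 and 7.33 ± 0.35 and T cell means of 8.36 ± 0.24 and 8.28 ± 0.32. Their red cell means were 13.01 ± 0.09 and 13.08 ± 0.21, and their monocyte means 7.04 ± 0.24 and 7.17 ± 0.21 (SD, n = 8). In these lists the sexes lay closer on each diet than the larger of their SDs. On comfrey this held for thrombocytes and heterophils too. The part of these lists in the W-linked signal and in the differences between the sexes was not tested.

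The sample titles number the birds from 1 to 32, and comfrey-fed females had a mean number of 18.5 against 12 for control females. Comfrey-fed males had 15.25 and control males 20.25. Birds 1 to 16 held 6 control females and 2 control males, with 4 comfrey-fed birds of each sex. Bird number was thus uneven between the sexes too. The fits of sex differences held diet and not bird number, so the part of bird number in them was not tested. In the 16 females, birds 17 to 32 minus birds 1 to 16, with diet in the model, gave 0 of 8 passing probe sets (limma, adjusted p 0.35 to 0.924, background 0.0%), and 0 had an unadjusted p under 0.05, against 2573 of 17894. LOC430766 was at -0.16 ± 0.07 and HINTW at 0.18 ± 0.12 (SE). With all 32 arrays in the fit these were -0.27 and 0.062.

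The 5 genes were compared with each other over the 16 females, in 10 pairs. None of 10 passed after adjustment (lowest adjusted permutation p 0.271 for r and 0.107 for rho), with r between -0.18 and 0.50. LOC430766, LOC427025 and UBAP2L2 had the 3 highest values. LOC430766 and UBAP2L2 had r = 0.50 (permutation p 0.0501; rho 0.58, permutation p 0.0215), LOC427025 and UBAP2L2 r = 0.48 (permutation p 0.057; rho 0.52, permutation p 0.0391), and LOC430766 and LOC427025 r = 0.45 (permutation p 0.0813; rho 0.59, permutation p 0.0186). Without the 2 birds farthest from the median of the gene named first, these were 0.40, 0.37 and 0.79.

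Within diets, the pair LOC430766 and UBAP2L2 had r = 0.35 in control and 0.47 in comfrey-fed females (n = 8), and 0.68 in birds 1 to 16 (n = 10) and 0.55 in birds 17 to 32 (n = 6). The pair LOC430766 and LOC427025 had r = 0.44 in birds 1 to 16 and 0.65 in birds 17 to 32. By diet it was at 0.79 in control and -0.16 in comfrey-fed females, so its sign differed between the diets, which was not tested. LOC427025 and UBAP2L2 were at 0.52 and 0.20. HINTW had r between -0.18 and 0.09 with the others over 16 females, and -0.79 with LOC427025 and -0.74 with UBAP2L2 among the 8 comfrey-fed females, against -0.04 and 0.41 among the control females. The values of -0.79 and -0.74 were the lowest within a diet among the 10 pairs, and the difference between the diets was not tested. Over the 16 males, r of the 10 pairs lay between -0.06 and 0.56, and 0 passed after adjustment (lowest adjusted permutation p 0.226 for r and 0.515 for rho).

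Not every probe set of a gene placed on W read higher in females. The gene table of the assembly GRCg7b places 170 genes on W, of which 13 are read by single-symbol probe sets here. Beside the 5 genes above, 8 others have 1 probe set each. They are what was left after the 5 were picked on the difference between the sexes. Nothing is therefore read from their count or from their contrast with the 5. In limma with diet as covariate, 1 of these 8 was lower in males, where 1.83% of all probe sets were. This was MIR7B, a microRNA gene of the miR-7 family. In the gene table it overlaps HNRNPKL, the W-linked relative of the RNA-binding protein gene HNRNPK. MIR7B ran from 4.79 through 4.98 to 5.60 in females and from 2.72 through 4.27 to 5.15 in males, given as lowest, median and highest of 16. Its male minus female difference was -0.99 ± 0.17 (SE, adjusted p 0.000119), with 3 males at or above the lowest female. It was -0.70 on control and -1.29 on comfrey, and the difference between these did not pass (limma, adjusted p 0.872).

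The remaining 7 did not pass, at differences between -0.25 and 0.12. MBD2, a protein that binds methylated DNA, had a female mean of 8.72 ± 0.22 and a male mean of 8.73 ± 0.35 (SD, n = 16), a difference of 0.01 with an interval from -0.19 to 0.21. NEDD4L, a ubiquitin ligase, averaged 5.31 ± 0.19 and 5.42 ± 0.18, with an interval of its difference from -0.02 to 0.25. ST8SIA3L, a relative of a sialic acid transferase, was at -0.25 (adjusted p 0.186). LOC426615, LOC426220, LOC427010 and LOC425347 had differences between -0.10 and -0.02. Males carry no W, yet their means were 8.73 for MBD2, 7.23 for LOC426615 and 7.08 for LOC426220, beside array medians of 6.51 to 6.60. They were 5.42 for NEDD4L, 3.40 for ST8SIA3L, 2.52 for LOC425347 and 2.33 for LOC427010. In males such signal cannot come from W. What these probe sets read in either sex was not tested, so nothing is read about W transcripts of these genes in females.

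The Z-linked counterparts of W genes were compared between the sexes to set the female signal beside that of the chromosome both sexes carry. Of 24 genes known to have a copy on each chicken sex chromosome, 20 could be placed on Z by their names in the table and 11 of these are read by probe sets, 12 in number. In limma 9 of the 12 were higher in males and 0 lower, where 3.53% of all probe sets and 206 of 447 Z-linked ones (46.1%) were higher. The median male minus female difference was 0.73, beside 0.28 over Z-linked probe sets and -0.02 over all probe sets. RASA1 has 2 of the 12 probe sets. The counterparts were not compared with Z-linked probe sets of like signal, so nothing particular to genes with a W copy is read from these values.

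ATP5F1AZ, the Z-linked partner of ATP5F1AW, had a female mean of 7.70 ± 0.19 and a male mean of 8.53 ± 0.11 (SD, n = 16), higher in males by 0.83 ± 0.056 (SE, limma adjusted p 2.31e-13). It ran from 7.27 through 7.70 to 8.16 in females and from 8.36 through 8.54 to 8.70 in males, without overlap. The partners thus went in opposite directions, ATP5F1AW being lower in males by 1.59 as described above. ATP5F1AW was picked on that difference, and 46.1% of Z-linked probe sets were higher in males, so nothing is read from the opposite directions. UBAP2, the partner of UBAP2L2, was higher in males by 0.85 ± 0.21 (adjusted p 0.00842). It passed on neither diet alone, at 0.68 on control (limma, adjusted p 0.284) and 1.02 on comfrey (adjusted p 0.051). Its females spread from 4.71 to 7.88 around a median of 6.69, overlapping the males at 6.37 to 8.33. The SD of females was 1.03 on control and 0.19 on comfrey. Over the 16 females, r between W-linked and Z-linked partner was 0.33 for ATP5F1AW (permutation p 0.216; rho 0.11, permutation p 0.68) and 0.27 for UBAP2L2 (permutation p 0.312; rho 0.38, permutation p 0.144), 2 pairs with an adjusted permutation p of 0.312 for r. Without the 2 females farthest from the median, r was 0.60 and 0.36. It was 0.18 and 0.43 in control and 0.41 and -0.53 in comfrey-fed females (n = 8), and 0.40 and 0.29 in birds 1 to 16 (n = 10) and 0.04 and 0.17 in birds 17 to 32 (n = 6). Over the 16 males it was 0.04 and -0.02 (adjusted permutation p 0.949; rho -0.28 and 0.14, permutation p 0.298 and 0.609). HINT1 has no single-symbol probe set here, and the gene table lists no gene on Z under the name NIPBL, so no partner of HINTW or LOC427025 was compared. LOC430766 has no other name to search by. Partners were sought by name and protein sequences were not compared, so a Z-linked gene under another name would be missed.

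The other counterparts higher in males were RASA1, a brake on the Ras pathway, by 0.99 ± 0.085 and 0.93 ± 0.090 in its 2 probe sets, and BTF3, which binds newly made proteins at the ribosome, by 0.87 ± 0.080. TXNL1, of the thioredoxin family, was higher by 0.81 ± 0.044, ZSWIM6 by 0.64 ± 0.048, the Golgi protein GOLPH3 by 0.55 ± 0.042 and the transcription cofactor SUB1 by 0.41 ± 0.059 (SE, limma adjusted p 5.60e-16 to 6.10e-06). The genes that did not pass were MIER3 at 0.35 ± 0.15 (adjusted p 0.228), the nuclear import receptor TNPO1 at 0.32 ± 0.18 (adjusted p 0.391) and ZNF532 at -0.14 ± 0.14 (adjusted p 0.682). Every male lay above every female in 7 of the 12 probe sets, beside 128 of 17894 (0.715%). The same share over the 447 Z-linked probe sets was not counted, so nothing particular to the counterparts is read from it.

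**Figure D4:**
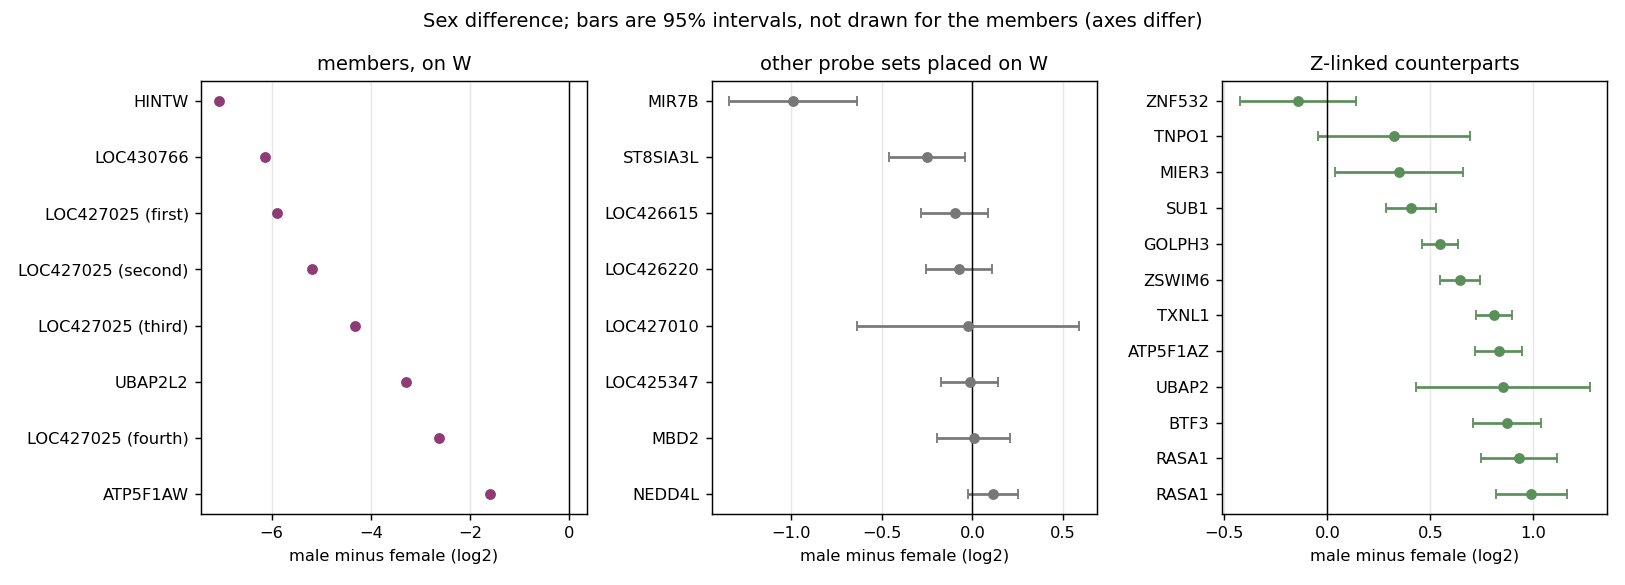
Male minus female difference (log2, horizontal axes, which differ in range) of the 8 probe sets of the chosen genes, 8 other probe sets placed on W and 12 probe sets of Z-linked counterparts. Points are differences over 16 males and 16 females, and bars, drawn for the others only, 95% intervals from limma. The chosen genes lie between -7.07 and -1.59, 7 of the 8 others between -0.25 and 0.12, and the Z-linked counterparts between -0.14 and 0.99. The chosen genes were picked on this difference, so nothing is read from their contrast with the 8 others.

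Among 10256 single-symbol probe sets of other genes, the pattern over 32 arrays most like the mean of the 5 genes, each scaled to unit SD, was that of LOC427353 (Pearson r = 0.97). Next were VLDLR, a lipoprotein receptor, at 0.84 and MCCC2, a subunit of a leucine-breakdown enzyme, at 0.82, each placed on Z and higher in females: VLDLR averaged 6.63 in females and 5.98 in males, and MCCC2 6.47 and 5.83. DDI2 at 0.78, on chromosome 21, and WAPL at 0.74, on chromosome 6, followed, with female means of 10.57 and 8.60 and male means of 10.29 and 8.05. These values mostly restate the difference between the sexes and were picked as the highest of many.

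Within the 16 females, FARSB, a subunit of the enzyme that charges tRNA with phenylalanine, followed HINTW most closely, at r = 0.90, followed by IFNGR1, a receptor chain for interferon gamma, at 0.83 and the splicing factor SRSF7 at 0.82. Bird 1 was the lowest female for HINTW and for all 3 of these genes. Without it the correlations were 0.93, 0.79 and 0.72 (n = 15). With the 3 rows listed under HINTW and LOC100857579, FARSB had r of 0.70, 0.85 and 0.89. IFNGR1 had 0.80, 0.85 and 0.79, and SRSF7 0.70, 0.86 and 0.79, so FARSB was the highest of the 3 genes with the last row alone. These correlations share arrays and their normalization, and are descriptions chosen as the highest of 10256.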

How the data were processed

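Blood RNA of 32 broiler chickens was labelled with biotin and hybridised to arrays, 1 bird each. Per the submitters' processing notes, the deposited log2 signals were made with GCOS 1.1.1 and RMA, a method of background correction, quantile normalization and summary over probes. The base was read from the values (0.83 to 13.97). Of 20804 rows, 2910 blank ones were left out. Of 17894 tested, 10264 carried 1 gene symbol. Current names and chromosomes came from RefSeq genes of GRCg7b. Its coordinates served only to see which genes overlap each other. They were not used to place probes, because no source used here names the probes' build.

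Models were fitted with limma 3.58.1 (lmFit, eBayes) in R 4.3.3, as two-sided tests. P-values were adjusted over the 17894 probe sets by Benjamini-Hochberg, with a threshold of 0.05. Diet differences came from a mean per diet and sex, sex differences from a model with diet. Correlations used 100000 permutations, and single diet differences exact permutation. Nothing says that birds were kept apart, so p-values measure the spread between birds as sampled. On simulated data of the diet difference in females with 17894 probe sets, 4.48%, 52.2% and 87.9% of changes of 0.25, 0.5 and 1 were called. These came from a single run with 66 or 67 changes of each size. Values were drawn independently for each probe set, with the same SD in both sexes. Real SDs can differ by sex (0.15 and 0.60 for LOC430766), so the shares need not hold for the W-linked probe sets. Python 3.11.15, pandas 2.3.3, numpy 2.4.6, scipy 1.17.1 and matplotlib 3.10.9 were also used.

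Members, lists and tests were chosen with earlier results of these data known. The text names the 5 genes, other single-symbol probe sets on W, Z-linked counterparts, female-high genes on Z, and the genes most like the 5 over 32 arrays (5 genes) or like HINTW over females (3 genes). SLC20A1 was named after its values were seen. Alternatives were the fit to 1 sex, bird number, median centring, repeated quantile normalization, a filter on dim probe sets, repeated rows left out, a variance trend, and each female left out.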

Additional observations from a re-analysis of the deposited data

Results flagged for a closer look

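In each of 32 combinations of probe set and group, the highest and lowest of 8 birds were compared with the rest by the ratio of Dixon, and 5 birds stood apart (gap over range above 0.526). Chance marks about 1 in 20 groups. In females, control bird 1 had a HINTW signal of 11.65, with the next control female at 12.12 (ratio 0.529). The same bird was the lowest female in all 3 rows listed with LOC100857579 and had a usual array, with a median correlation of 0.977 with the other females, whose values lay between 0.972 and 0.980. Comfrey-fed bird 12 had 5.12 in the fourth LOC427025 probe set, with the next at 5.67 (0.552), although it was the highest female in the other 3 probe sets of that gene. In males, control bird 22 had a UBAP2L2 signal of 6.01, next 5.47 (0.532). Comfrey-fed bird 21 had 4.75 for ATP5F1AW, next 5.51 (0.663), and comfrey-fed bird 4 had 4.60 for the first LOC427025 probe set, next 4.14 (0.625).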

How the results depend on the processing

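No W-linked probe set passed for diet in females under any of 8 other fits or with each of 16 females left out (0 of 8 in each case, and 0 of 4 with dim probe sets removed). That filter used the mean over all 32 arrays, males included. Among the probe sets it dropped were the second of LOC427025 (female mean 8.19) and ATP5F1AW (7.31), above the array medians in females. It thus does not sort W-linked probe sets by their signal in females. In males (3 other fits), for the interaction (3) and for bird number (2) the count was likewise 0 of 8. With females left out in turn, the HINTW difference lay between 0.014 and 0.14, and the number of passing probe sets among all lay between 0 and 3. Among all probe sets, 1 passed for diet in females, and 0 with the 16 females alone, with quantile normalization repeated or with dim probe sets removed. For bird number 0 passed in females alone and 544 with all 32 arrays. The second LOC427025 probe set had an exact permutation p of 0.0373 for its diet difference of 0.23, without adjustment. Its bird number difference of 0.038 turned to -0.049 with all 32 arrays in the fit, where UBAP2L2 went from 0.028 to 0.0092 and the third LOC427025 probe set from -0.086 to -0.19, and the cause was not tested. The median female excess of the 5 genes was 5.89, and lay between 5.74 and 6.04 by diet and under 2 other normalizations. The LOC430766 and UBAP2L2 excess on each diet moved from the pooled 6.14 and 3.30 (5.84 and 6.44, 3.09 and 3.51). These shifts were larger than the SD of females (0.15 and 0.18) and smaller than that of males (0.60 and 0.44). Of 11 Z-linked counterparts, 8 were higher in males under each of 5 alternatives, with 9 left after the filter on dim probe sets. None of these alternatives held bird number. For relations between members, median centring and removal of diet means, added after seeing the data, gave 0 of 10 pairs. No paired analysis was possible because the labels number birds without pairing them. Background correction could not be varied on the deposited signals.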
